A study of Mus musculus with 8 samples.

Results

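The solute carriers described here are the membrane transporters whose symbols begin with Slc and a family number. They were picked by symbol from 2 deposited tables of small intestinal RNA, 1 of crypts and 1 of villi. The mitochondrial family Slc25 and a few apical ion, iron and bile acid carriers (Slc12a2, Slc9a3, Slc26a3, Slc26a6, Slc40a1, Slc11a2, Slc10a2, Slc51a and Slc51b) were left out. By this rule 217 of the 13028 genes in either table were members, from 45 families. Of these, 195 were listed for crypts, 209 for villi and 187 for both, with 8 for crypts alone and 22 for villi alone. By substrate, 35 carried amino acids, 18 sugars, 4 peptides, 7 nucleosides and 27 metals, and the others were put into classes for ions, vitamins, organic acids, lipids, nucleotide sugars and drugs. Of the 217 symbols, 6 belong to genes that are no transporter, such as the scaffold gene Slc9a3r1 and the antisense transcript Slc13a2os, and they formed a class of their own.

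Nutrients cross the gut lining through solute carriers in the brush border and in the basolateral membrane of enterocytes, the absorptive cells that line the villi. Crypts hold the dividing cells from which enterocytes arise, and dividing cells take up amino acids, nucleosides and metals for their own growth through other members of the same families. Many carriers use the sodium gradient made by the sodium pump, others exchange one substrate for another, and several need a partner protein to reach the membrane.

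The libraries came from Ctrl mice and from Gli1-PtgscKO mice (Gli1-CreERT2; Ptgs1 flox/flox; Ptgs2 flox/flox) on a C57BL/6 background, 1 month after tamoxifen. In Gli1-PtgscKO mice, Cre removes the 2 cyclooxygenase genes from Gli1-expressing mesenchymal cells, so the epithelium itself was not the target. The sample labels give the Ctrl animals as wild type and as carrying Gli1-CreERT2 with a Rosa26-tdTomato reporter, whereas a figure legend of the study gives mice with both floxed genes and no Cre, and the labels and the methods name different RNA and library kits. Each genotype had 2 crypt and 2 villus samples, but the columns of the 2 Ctrl villus samples were identical for all 12701 genes and were counted as 1 library. Replicates are described as biological, and p-values measure only the spread between these samples.

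Crypt libraries held 16853017 to 21121714 recovered reads and villus libraries 13477600 to 15751024, over the genes each table lists. Ptgs1 had 365 and 164 normalized counts (gene counts divided by the library's size factor) in Ctrl crypts, 178 and 199 in Gli1-PtgscKO crypts, 90.4 in Ctrl villi and 50.5 and 92.7 in Gli1-PtgscKO villi, and Ptgs2 and Gli1 were not listed, so the labels could not be checked on the deleted genes. Levels are given as CPM, reads per 1000000, counted over the 11227 genes in both tables for single genes and over all genes of a library's own table for marker sums. Enterocyte markers (10 of 10 listed) summed to 5311 to 7476 CPM in crypts and to 29554 to 34983 in villi, while stem cell markers (8 of 8 listed) summed to 5067 to 5841 CPM in crypts and 192 to 449 in villi. The tissue labels therefore held. Within villi, the stem cell sum was 192 CPM in Ctrl and 449 and 339 in Gli1-PtgscKO. The cycling cell sum (5 of 5 listed) was 125 against 219 and 216, and the Paneth sum (7 of 7 listed) 484 against 967 and 600. What part these sums have in the genotype differences in villi, or in the axis counts, was not tested. Gli1-PtgscKO crypt replicate 1 stood apart: it lay at one end of a principal component that took up 68.4% of the variance among the crypts, its Paneth markers summed to 39241 CPM against 21709 to 26694 in the others, and its difference from them ran with transcript length (Spearman -0.67 across genes). In these bulk samples, fewer cells of a type and less RNA per cell cannot be told apart.

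Along the crypt to villus axis, the members higher in villi of both genotypes included the fructose carrier Slc2a5, the neutral amino acid carrier Slc6a19, the folate carrier Slc46a1 and the nucleoside carrier Slc28a1. Those higher in crypts of both included the cationic amino acid carrier Slc7a1, the neutral amino acid exchanger Slc1a5, the monocarboxylate carrier Slc16a1 and the zinc and manganese carrier Slc39a8. Single substrates had carriers on both sides, such as Slc6a19 and Slc1a5 for neutral amino acids, Slc5a11 and Slc5a3 for inositol and Slc16a3 and Slc16a1 for monocarboxylates. The 2 tables were normalized separately and only 1 Ctrl villus library exists, so the axis is described without a test: a member counted as past 2-fold where every villus library of a genotype lay more than 2-fold above, or below, every crypt library on CPM + 1. Mitochondrially encoded RNAs took 19.4% to 26.5% of villus reads and 2.62% to 11.3% of crypt reads. Scaling by TMM factors in place of CPM moved the median villus minus crypt difference of all genes up by 0.97 log2 units in Ctrl and 0.54 in Gli1-PtgscKO. A direction is therefore given only where both scalings passed 2-fold. In Ctrl, 18 of 187 members were higher in villi on both scalings and 38 lower, beside 7.66% and 23.8% of all 11227 genes. In Gli1-PtgscKO mice 27 members were higher and 15 lower, where the shares of all genes were 4.14% and 8.15%. The rule was stricter in Gli1-PtgscKO, where 2 villus libraries had to pass in place of 1. The counts of the 2 genotypes are therefore not alike, and passing in 1 genotype alone is no tested difference between genotypes. On CPM alone the counts were 18 higher and 77 lower in Ctrl (7.66% and 48.3% of all genes) and 27 and 32 in Gli1-PtgscKO (4.14% and 18.9%), and with TMM alone they were 49 and 38 (21.8% and 23.8%) and 41 and 15 (8.89% and 8.15%). The 2 genotypes share no library, and 15 members were higher in villi in both (83.3% of the Ctrl list and 55.6% of the Gli1-PtgscKO list), where 3.05% of all genes were. Another 14 were lower in villi in both (36.8% and 93.3% of the lists), where 6.84% of all genes were. No member was higher in villi of one genotype and lower in villi of the other, and 118 of the 187 passed in neither.

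Over the 187 members, the villus minus crypt differences of the 2 genotypes correlated with Pearson's r of 0.86 and Spearman's rho of 0.83 across genes, which share each table's processing, and over all shared genes Pearson's r was 0.80. The median member difference on CPM was -0.90 in Ctrl and -0.25 in Gli1-PtgscKO, beside -1.06 and -0.56 over all genes. Substrate classes differed in their medians: sugar carriers lay at 0.41 in Ctrl and 1.46 in Gli1-PtgscKO, nucleoside carriers at -1.70 and -1.07. Amino acid carriers had a Ctrl median of -0.75 and ran from -3.72 for Slc7a2 to 1.83 for Slc6a19.

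**Figure D1:**
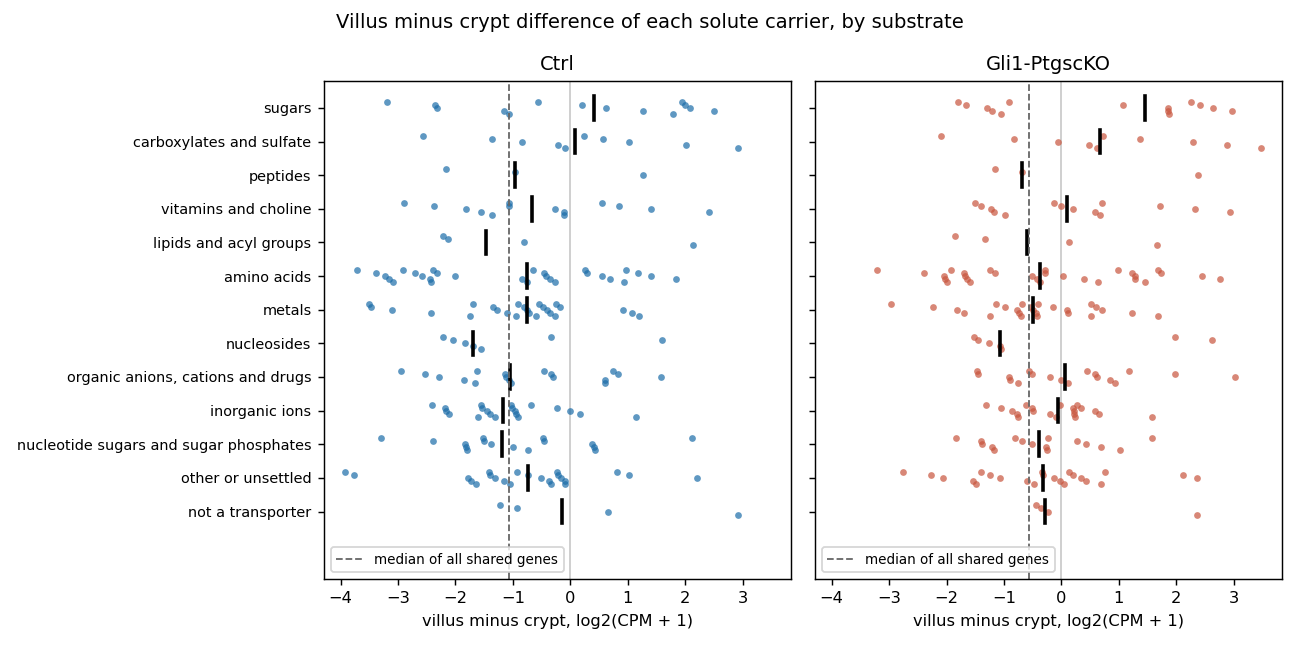
Villus minus crypt difference of each of the 187 solute carriers in both tables, on the log2(CPM + 1) scale, by substrate class, in Ctrl (left) and Gli1-PtgscKO (right). Each point is 1 gene, black bars are class medians and the dashed line is the median of all 11227 shared genes (-1.06 and -0.56); sugar carriers had the highest class median in both panels and amino acid carriers spread to both sides.

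Members that move together along the axis were searched for short promoter motifs of factors known in enterocytes or in nutrient responses, in RefSeq windows from 250 bases before to 50 bases after each start site (GRCm38.p6, on both strands). The motifs were GTTAAT, which is only part of the full HNF1 site, the CDX site TTTATG, the HNF4 site CAAAGTCCA, the metal response element TGCGCNC and the amino acid response element TGATGNAA. A window was found for 167 of the 217 members, 13 of the 15 that were higher in villi in both genotypes and 11 of the 14 that were lower. Windows with the CDX letters were found for 2 of those 13, for 0 of those 11 and for 12 of all 167 members (7.19%), beside 13.6% of all genes with a window. The HNF1 letters were in 1 of the 13, 0 of the 11 and 12 of all 167 members (7.19%), beside 8.24% of all genes, and in 6 of 29 amino acid carriers. Metal response letters were in 8 of 23 metal carriers and in 46 of all 167 members, beside 17% of all genes. They were not particular to metal carriers. Shares were higher for nucleotide sugars and sugar phosphates (9 of 15), lipids (3 of 5) and carboxylates (2 of 5), and lower in the other classes. The HNF4 letters were in 1 member, Slc3a1, beside 0.555% of all genes, and the amino acid response letters in 9 of 167, beside 4.51%. None of the 5 motifs holds another. Counts this small describe these windows only. The matches below are examples at 6 members described in the next paragraphs, picked after their values were seen, and other matches before start sites are not printed. Of these members, only Slc27a4 was higher in villi in both genotypes. Slc7a7 and Slc39a5 passed in Ctrl alone, Slc7a15 and Slc28a2 in Gli1-PtgscKO alone, and Slc3a1 in neither. All matches printed lie outside annotated exons (Slc7a7 within a Slc7a7 intron, Slc39a5 within introns of Slc39a5 and Ankrd52, the others between genes). Each is given 5′ to 3′ along the gene's strand, with the motif on either strand in capitals.
Slc7a7, HNF1 letters, chr14:54409542-54409569, minus strand, 86 bases before the start: gctgaccatttGTTAATggctattcccg
Slc39a5, HNF1 letters, chr10:128400600-128400627, minus strand, 150 bases before the start: accagtgaaccATTAACtcctatatgaa
Slc7a15, HNF1 letters, chr12:8599233-8599260, minus strand, 183 bases before the start: ataaatcatacATTAACcagatgtctgc
Slc7a15, CDX letters, chr12:8599095-8599122, minus strand, 45 bases before the start: tccccttttggTTTATGgttttttgcct
Slc28a2, CDX letters, chr2:122426349-122426376, plus strand, 75 bases before the start: gtaaccacctaCATAAAaggaagtcttc
Slc27a4, CDX letters, chr2:29802448-29802475, plus strand, 175 bases before the start: ctgtgggcgggTTTATGctacctggatc
Slc3a1, HNF4 letters, chr17:85028297-85028327, plus strand, 39 bases before the start: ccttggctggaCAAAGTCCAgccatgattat

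Sugar carriers were led by Slc5a1, the sodium-coupled glucose and galactose carrier of the brush border (SGLT1). Slc5a1 had 620.4 and 945 CPM in Ctrl crypts, 551 and 741 in Gli1-PtgscKO crypts, 1844 in Ctrl villi and 2984 and 1783 in Gli1-PtgscKO villi. Every villus library lay above every crypt library, by 1.27 log2 units in Ctrl and 1.85 in Gli1-PtgscKO on CPM, and Ctrl crypt replicate 2, at the upper end of the crypts, kept the Ctrl pair from passing 2-fold. Per kilobase of its longest transcript, Slc5a1 had the highest level of any transporter among the members in Ctrl villi, at 449 CPM per kilobase, and also in Ctrl crypts, at 151 and 230.2. Slc2a2, the basolateral glucose exit route (GLUT2), had 84.7 and 158 CPM in Ctrl crypts, 65.7 and 117 in Gli1-PtgscKO crypts, 179 in Ctrl villi and 416 and 248 in Gli1-PtgscKO villi, and it passed 2-fold on both scalings in Gli1-PtgscKO mice alone, a difference between genotypes that was not tested. Slc2a5, the apical fructose carrier (GLUT5), had 54.2 and 52.7 CPM in Ctrl crypts, 45.2 and 44.3 in Gli1-PtgscKO crypts, 208 in Ctrl villi and 227 and 123 in Gli1-PtgscKO villi. Its crypt and villus libraries were far apart in both genotypes, with differences of 1.94 and 1.88 on CPM and 3.0 and 2.45 with TMM.

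Of the 14 sugar members in both tables, 5 were higher and 3 lower in Ctrl villi on both scalings, beside 7.66% and 23.8% of all genes. In Gli1-PtgscKO villi 7 were higher and 2 lower, beside 4.14% and 8.15%. The less abundant Slc2a7 (GLUT7) had 8.13 and 8.25 CPM in Ctrl crypts, 4.31 and 7.85 in Gli1-PtgscKO crypts, 35.6 in Ctrl villi and 65.6 and 42.6 in Gli1-PtgscKO villi. Slc5a11, a sodium-coupled inositol carrier, had 24.9 and 34.1 CPM in Ctrl crypts, 27.8 and 27.1 in Gli1-PtgscKO crypts, 169 in Ctrl villi and 174 and 104 in Gli1-PtgscKO villi. The neighbouring genes Slc5a4a and Slc5a4b, which are so alike that reads may be split between them, were also higher in villi of both genotypes, although Slc5a4a no longer passed 2-fold in Ctrl after a correction for transcript length. On the crypt side stood Slc5a3, which brings inositol into cells that regulate their volume, and Slc2a10. Slc5a3 had 14.8 and 11.8 CPM in Ctrl crypts, 9.33 and 11.2 in Gli1-PtgscKO crypts, 0.550 in Ctrl villi and 2.17 and 2.31 in Gli1-PtgscKO villi, and Slc2a10 had 5.73 and 8.82 CPM in Ctrl crypts, 10.8 and 9.51 in Gli1-PtgscKO crypts, 0.619 in Ctrl villi and 2.49 and 2.53 in Gli1-PtgscKO villi. For both genes each villus library lay below each crypt library. Slc2a1, the glucose carrier of many dividing cells (GLUT1), had 16.7 and 18.1 CPM in Ctrl crypts, 19.3 and 21.2 in Gli1-PtgscKO crypts, 7.29 in Ctrl villi and 9.75 and 8.71 in Gli1-PtgscKO villi, a difference of -1.15 on CPM in Ctrl that shrank to -0.17 with TMM, so no direction is given.

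**Figure D2:**
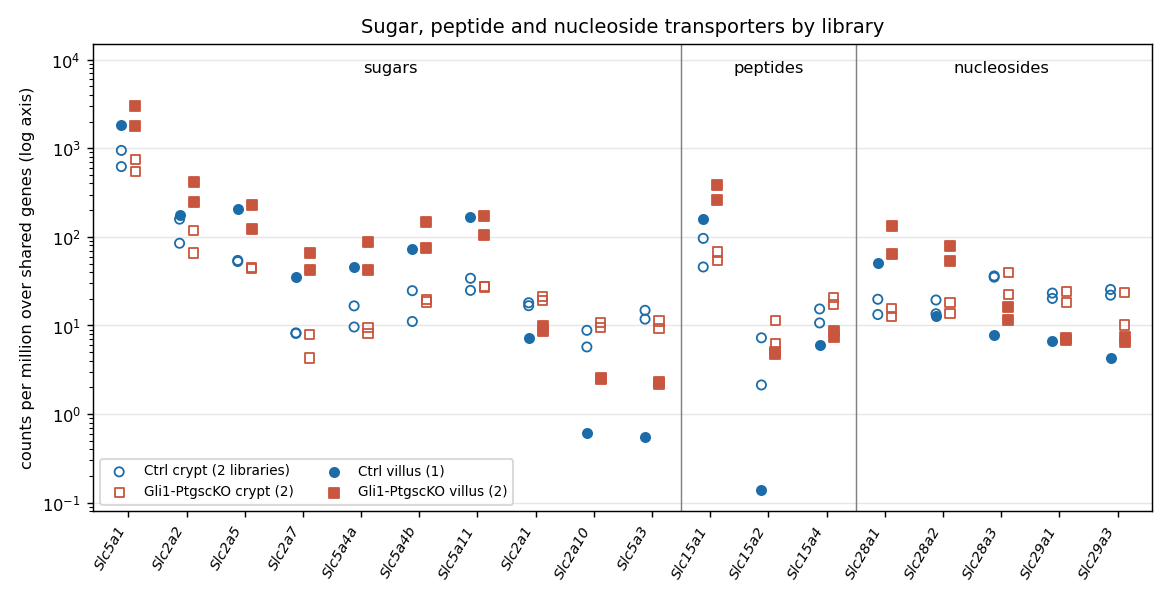
CPM (log axis) of 18 sugar, peptide and nucleoside carriers in each of the 7 libraries, with Ctrl as circles, Gli1-PtgscKO as squares, crypts open and villi filled. Slc5a1 was the highest in each library, Slc2a5, Slc2a7, Slc5a4a, Slc5a4b, Slc5a11 and Slc28a1 were higher in villi of both genotypes, and Slc15a2 had its lowest point, 0.138 CPM, in the Ctrl villus library.

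Among the peptide carriers, Slc15a1, the proton-coupled carrier that takes up most dietary di- and tripeptides (PepT1), had 45.7 and 96.1 CPM in Ctrl crypts, 53.7 and 67.5 in Gli1-PtgscKO crypts, 160.2 in Ctrl villi and 385 and 264 in Gli1-PtgscKO villi. It passed 2-fold on both scalings in Gli1-PtgscKO mice, at 2.38 on CPM, while in Ctrl its difference was 1.26 and crypt replicate 2 again lay close to the villus library. Slc15a2 (PepT2), a high-affinity relative best known from kidney, had 7.26 and 2.13 CPM in Ctrl crypts, 6.30 and 11.4 in Gli1-PtgscKO crypts, 0.138 in Ctrl villi and 4.72 and 5.07 in Gli1-PtgscKO villi. The 0.138 CPM in Ctrl villi were 2 reads, and Ctrl crypts over Ctrl villi gave a ratio of 33.4 with an exact 95% interval from 9.13 to 278, for counting error only. In Gli1-PtgscKO mice the crypt and villus levels of Slc15a2 differed by -0.69, less than 2-fold. Slc15a4, which exports peptides and histidine from lysosomes, had 10.7 and 15.4 CPM in Ctrl crypts, 17.3 and 20.9 in Gli1-PtgscKO crypts, 6.05 in Ctrl villi and 7.46 and 8.57 in Gli1-PtgscKO villi and passed 2-fold on both scalings in neither genotype. Slc15a3, its lysosomal relative in immune cells, was not listed in crypts.

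The 7 nucleoside carriers were found on both sides. The concentrative carrier Slc28a1, which takes up pyrimidine nucleosides with sodium, had 13.3 and 19.8 CPM in Ctrl crypts, 12.7 and 15.5 in Gli1-PtgscKO crypts, 51 in Ctrl villi and 131 and 64.7 in Gli1-PtgscKO villi and was higher in villi in both genotypes. Slc28a2, which prefers purine nucleosides, had 13.6 and 19.4 CPM in Ctrl crypts, 13.5 and 18 in Gli1-PtgscKO crypts, 12.7 in Ctrl villi and 53.1 and 78 in Gli1-PtgscKO villi. Its Ctrl villus level lay just under both Ctrl crypt levels while both Gli1-PtgscKO villus libraries lay above all crypts, so that its axis difference was -0.34 in Ctrl and 1.98 in Gli1-PtgscKO. Slc28a3, a concentrative carrier that accepts both kinds of nucleoside, and the equilibrative lysosomal carrier Slc29a3 were lower in Ctrl villi on both scalings, at -2.05 and -2.21 on CPM. In Gli1-PtgscKO mice their differences were -1.07 and -1.06 and did not pass. The equilibrative carriers Slc29a1 and Slc29a2 and the purine base carrier Slc43a3 lay at -1.55, -1.70 and -1.84 in Ctrl on CPM, and none of the 3 passed with TMM.

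Of 29 amino acid carriers in both tables, 2 were higher and 13 lower in Ctrl villi on both scalings, beside 7.66% and 23.8% of all genes. In Gli1-PtgscKO villi 4 were higher and 5 lower, beside 4.14% and 8.15%. Slc6a19, the main sodium-coupled carrier of neutral amino acids in the brush border (B0AT1), had 94.3 and 161 CPM in Ctrl crypts, 97 and 116 in Gli1-PtgscKO crypts, 442 in Ctrl villi and 778 and 441 in Gli1-PtgscKO villi, with differences of 1.83 and 2.45. Slc7a7, the light chain of the basolateral exchanger y+LAT1 that releases cationic amino acids, had 70.3 and 89.6 CPM in Ctrl crypts, 77.8 and 70.8 in Gli1-PtgscKO crypts, 181 in Ctrl villi and 224 and 147 in Gli1-PtgscKO villi. It passed 2-fold in Ctrl alone, and not there after the length correction. Slc7a15, a less studied relative of the light chains, had 11.1 and 20.6 CPM in Ctrl crypts, 11.8 and 17.1 in Gli1-PtgscKO crypts, 41.8 in Ctrl villi and 119 and 88.8 in Gli1-PtgscKO villi, and passed in Gli1-PtgscKO alone.

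Slc7a9 and Slc3a1, the 2 subunits of the apical carrier of cystine and cationic amino acids (b0,+AT and rBAT), had parallel profiles. Slc7a9 had 87.5 and 115 CPM in Ctrl crypts, 67.1 and 88.2 in Gli1-PtgscKO crypts, 193 in Ctrl villi and 232 and 197 in Gli1-PtgscKO villi, and Slc3a1 had 45.1 and 63.3 CPM in Ctrl crypts, 34.8 and 62.2 in Gli1-PtgscKO crypts, 87.3 in Ctrl villi and 129 and 102 in Gli1-PtgscKO villi. Both were above the crypts in each villus library of their genotype, and only Slc7a9 passed 2-fold on both scalings, in Gli1-PtgscKO mice, and not there after the length correction. Slc43a2, a facilitated exit route for branched-chain and aromatic amino acids, had 151 and 219.8 CPM in Ctrl crypts, 114 and 171 in Gli1-PtgscKO crypts, 358 in Ctrl villi and 587 and 371 in Gli1-PtgscKO villi and passed in Gli1-PtgscKO villi. The basolateral carriers Slc3a2, Slc16a10 and Slc7a8 passed in neither genotype, with Ctrl differences of 0.55, 0.30 and -0.84 on CPM. Slc6a20a, the brush border carrier of proline, had 70.0 and 80.6 CPM in Ctrl crypts, 58.8 and 73.8 in Gli1-PtgscKO crypts, 58.7 in Ctrl villi and 206 and 117 in Gli1-PtgscKO villi, below both crypt libraries in Ctrl villi and above them in both Gli1-PtgscKO villi, and did not pass either way.

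Several amino acid carriers were lower in villi of both genotypes. Slc7a1, the cationic amino acid carrier CAT1, had 162 and 169.5 CPM in Ctrl crypts, 96.9 and 174 in Gli1-PtgscKO crypts, 18.5 in Ctrl villi and 33.8 and 28.3 in Gli1-PtgscKO villi. Slc1a5, the glutamine and neutral amino acid exchanger ASCT2, had 138 and 118 CPM in Ctrl crypts, 129.9 and 133 in Gli1-PtgscKO crypts, 18.7 in Ctrl villi and 29.8 and 33.2 in Gli1-PtgscKO villi. Slc7a5, the light chain of the large neutral amino acid exchanger LAT1, had 36.3 and 32.3 CPM in Ctrl crypts, 23 and 29.5 in Gli1-PtgscKO crypts, 3.65 in Ctrl villi and 3.82 and 4.47 in Gli1-PtgscKO villi. For these 3 genes the villus libraries lay below every crypt library, with CPM differences of -3.09, -2.70 and -2.92 in Ctrl and -2.04, -2.03 and -2.40 in Gli1-PtgscKO, and all passed on both scalings in both genotypes. Slc1a4 (ASCT1) and Slc7a6 did so too, at -3.39 and -2.44 in Ctrl. The sodium-coupled neutral amino acid carriers Slc38a1 and Slc38a2 passed on both scalings in Ctrl alone, with 154 and 149 CPM of Slc38a2 in Ctrl crypts, 96.8 and 154 in Gli1-PtgscKO crypts, 16.2 in Ctrl villi and 57.4 and 45.1 in Gli1-PtgscKO villi. Slc1a1, the glutamate carrier EAAC1 that is usually counted among the brush border carriers, also stood on the crypt side in Ctrl, on both scalings. It had 84.6 and 77.1 CPM in Ctrl crypts, 67.4 and 51.8 in Gli1-PtgscKO crypts, 14.2 in Ctrl villi and 21.2 and 15.8 in Gli1-PtgscKO villi. Slc7a2, an inducible cationic amino acid carrier (CAT2), had 20.6 and 18.3 CPM in Ctrl crypts, 7.02 and 18.2 in Gli1-PtgscKO crypts, 0.550 in Ctrl villi and 1.85 and 2.38 in Gli1-PtgscKO villi, and it passed in Ctrl alone. Slc6a14, a broad carrier of neutral and cationic amino acids, had no more than 4.22 CPM in any library, and Slc7a11, the cystine and glutamate exchanger, was not listed in crypts.

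**Figure D3:**
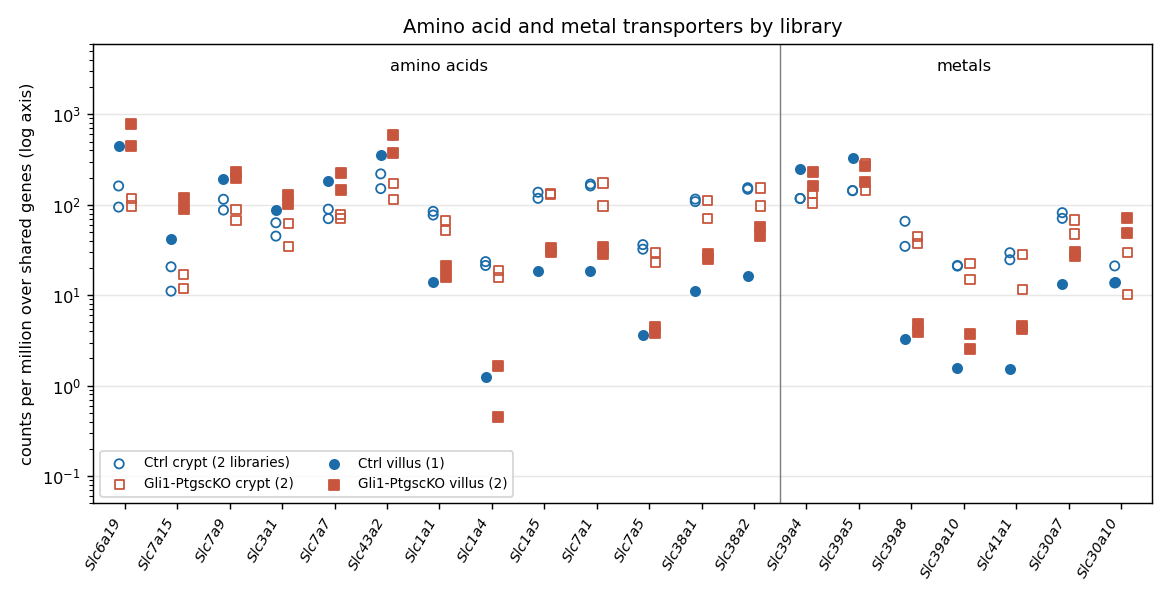
CPM (log axis) of 20 amino acid and metal carriers in each of the 7 libraries, with Ctrl as circles, Gli1-PtgscKO as squares, crypts open and villi filled. Slc6a19 was higher in villi of both genotypes, and Slc1a4, Slc1a5, Slc7a1, Slc7a5, Slc39a8 and Slc39a10 were lower in villi of both.

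Of 25 metal carriers, 2 were higher and 4 lower in Ctrl villi on both scalings, beside 7.66% and 23.8% of all genes. In Gli1-PtgscKO villi 0 were higher and 2 lower, beside 4.14% and 8.15%. Slc39a4, the apical zinc importer ZIP4, had 117 and 118 CPM in Ctrl crypts, 134 and 105 in Gli1-PtgscKO crypts, 248 in Ctrl villi and 232 and 161 in Gli1-PtgscKO villi. Slc39a5, the basolateral zinc importer ZIP5, had 143 and 144 CPM in Ctrl crypts, 287 and 144 in Gli1-PtgscKO crypts, 329 in Ctrl villi and 267 and 179.9 in Gli1-PtgscKO villi. Both passed in Ctrl and not after the length correction, and Gli1-PtgscKO crypt replicate 1 held more Slc39a5 than either Gli1-PtgscKO villus library. On the crypt side were the importers Slc39a8 (ZIP8), for zinc and manganese, and Slc39a10 (ZIP10), for zinc, which passed in both genotypes. Slc39a8 had 65.7 and 34.7 CPM in Ctrl crypts, 37.6 and 44.6 in Gli1-PtgscKO crypts, 3.30 in Ctrl villi and 4.84 and 3.95 in Gli1-PtgscKO villi, and Slc39a10 had 21.3 and 21 CPM in Ctrl crypts, 15 and 22.3 in Gli1-PtgscKO crypts, 1.58 in Ctrl villi and 3.70 and 2.53 in Gli1-PtgscKO villi. The magnesium carrier Slc41a1 had 29.5 and 24.7 CPM in Ctrl crypts, 11.6 and 28.3 in Gli1-PtgscKO crypts, 1.51 in Ctrl villi and 4.27 and 4.62 in Gli1-PtgscKO villi, and it passed in Ctrl alone. Its lowest crypt level, in Gli1-PtgscKO crypt replicate 1, was still above both villus libraries.

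Among the zinc exporters, Slc30a7, which fills the secretory pathway with zinc, was lower in Ctrl villi on both scalings, at -2.43, and lay at -0.97 in Gli1-PtgscKO. Slc30a1, the exporter of the plasma membrane, Slc30a4 and Slc30a5 had CPM differences of -1.34, -1.69 and -1.10 in Ctrl that did not pass with TMM. Slc30a10, which exports manganese, had 13.7 and 21.1 CPM in Ctrl crypts, 10.1 and 29.9 in Gli1-PtgscKO crypts, 14 in Ctrl villi and 48.9 and 70.8 in Gli1-PtgscKO villi. Its Gli1-PtgscKO villus libraries lay above all other libraries, while the Ctrl villus library lay between the Ctrl crypts. The copper importer Slc31a1 (CTR1) had 157 and 184 CPM in Ctrl crypts, 119 and 159 in Gli1-PtgscKO crypts, 122 in Ctrl villi and 196 and 198 in Gli1-PtgscKO villi and passed in neither genotype.

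Members of the other classes also stood at both ends. Slc46a1, the proton-coupled folate carrier of the upper small intestine, had 29.2 and 56.4 CPM in Ctrl crypts, 38.1 and 40.8 in Gli1-PtgscKO crypts, 222 in Ctrl villi and 212 and 190.2 in Gli1-PtgscKO villi, with differences of 2.42 and 2.32. Slc23a1, which takes up vitamin C, had 7.26 and 9.10 CPM in Ctrl crypts, 4.66 and 9.33 in Gli1-PtgscKO crypts, 23.3 in Ctrl villi and 81.1 and 40.6 in Gli1-PtgscKO villi. Slc27a4, a fatty acid transport protein with acyl-CoA synthetase activity, had 207 and 282 CPM in Ctrl crypts, 291 and 235 in Gli1-PtgscKO crypts, 1068 in Ctrl villi and 962 and 718 in Gli1-PtgscKO villi. All 3 were higher in villi of both genotypes, as were the citrate carrier Slc13a2, the lactate exporter Slc16a3, the creatine carrier Slc6a8 and the Golgi member Slc35c2. Reads of Slc13a2 and of its antisense transcript cannot be told apart, because the strand setting of the counting is not given. Slc9a3r1 (NHERF1), the scaffold under the brush border that is no transporter itself, had 266 and 323 CPM in Ctrl crypts, 306 and 264 in Gli1-PtgscKO crypts, 2238 in Ctrl villi and 1493 and 1447 in Gli1-PtgscKO villi, the highest level per kilobase of all members in villi. On the crypt side stood Slc16a1, the monocarboxylate carrier MCT1, with 295 and 299 CPM in Ctrl crypts, 310.2 and 271 in Gli1-PtgscKO crypts, 49 in Ctrl villi and 77.7 and 58 in Gli1-PtgscKO villi. The urea carrier Slc14a1 had a Ctrl difference of -3.92 on CPM and -3.12 with TMM, with 30.0 and 40.5 CPM in Ctrl crypts and 1.38 in Ctrl villi. For Slc16a12 these differences were -3.77 and -3.28, and its 3 reads in Ctrl villi gave a ratio of crypts over villi of 75.2 with an exact 95% interval from 25.6 to 366, for counting error only. None of 20 ion carriers was higher in Ctrl villi on both scalings and 2 were lower, beside 7.66% and 23.8% of all genes. The 2 lower ones were the bicarbonate carrier Slc4a4 at -2.41 and Slc9a5 at -2.17.

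Single crypt libraries moved these counts. Ctrl crypt replicate 2 held more of the enterocyte marker sum than replicate 1 (7476 against 5311 CPM), and 14 of the 15 members higher in villi of both genotypes were also higher in it; without it the Ctrl count of higher members was 29 in place of 18 and the count for both genotypes 25 in place of 15, and whether enterocyte content accounts for this was not tested. Without Gli1-PtgscKO crypt replicate 1, the Gli1-PtgscKO counts were 29 higher and 22 lower, and without replicate 2 they were 36 and 24. Leaving out a library loosens the 2-fold rule for every gene. Shares of all genes are not given for these settings, so nothing is read from these counts about the members.

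In crypts no solute carrier passed the limma-trend test between genotypes, and the members with the largest differences were Slc5a5 and Slc45a3. The 2 Gli1-PtgscKO libraries were compared with the 2 Ctrl libraries, which are also those of the Ctrl axis, by limma-trend on log2(normalized count + 1) over all 11554 listed genes. The threshold was that of the study, a log2 fold change beyond 1 in either direction with a raw p below 0.01. The study applied it to DESeq2 results. No member passed it by limma-trend, where 0.173% of all genes passed as higher and 0.00866% as lower. None had an adjusted p under 0.05 by limma, edgeR or DESeq2, and 2 had an unadjusted p under 0.05 by limma, 2 by edgeR and 2 by DESeq2, where 0.632% of all genes did by limma. DESeq2, the study's own method, was run here on recovered reads and put the same 2 members, Slc5a5 and Slc45a3, past the study's threshold. The share of all genes that passed it by DESeq2 is not given here, so nothing is read from this count. The Gli1-PtgscKO libraries lay on 1 side of both Ctrl libraries for 48 members, 20 higher (10.3%) and 28 lower (14.4%), beside 9.73% and 11.3% of all genes. The median log2 fold change of the 195 members was -0.081, and that of all genes was -0.010. With 2 libraries a group, 0.333 is the smallest two-sided p that exact permutation could reach for 1 gene.

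The 2 members with an unadjusted p under 0.05 were Slc5a5, the sodium and iodide symporter, and Slc45a3, a putative sugar carrier also known as prostein. Slc5a5 had 67.5 and 181 normalized counts in Ctrl crypts and 372 and 379 in Gli1-PtgscKO crypts. Both Gli1-PtgscKO libraries were above both Ctrl libraries, with a log2 fold change of 1.75 (SE 0.50, limma adjusted p = 1). Slc45a3 had 46.9 and 76.5 in Ctrl and 251 and 144 in Gli1-PtgscKO crypts, a log2 fold change of 1.65 (SE 0.50, limma adjusted p = 1). Slc9a4, a sodium and proton exchanger best known from acid-secreting stomach glands, followed with 89 and 117 in Ctrl and 165 and 234 in Gli1-PtgscKO crypts and a log2 fold change of 0.94 (SE 0.41, limma adjusted p = 1). None of the 3 was listed in villi. In the same libraries the stomach markers Gkn1, Gkn2, Muc5ac and Cblif summed to 845 and 1170 CPM in Ctrl crypts and to 3514 and 2332 in Gli1-PtgscKO crypts, with Tff1 and Atp4a not listed, and their part in these differences was not tested. In villi, where Cblif was not listed either, the sum of the other 3 was 2.67 to 24.3 CPM.

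Other members with separate crypt groups had smaller differences. The lysosomal Slc15a4 had 196 and 292 normalized counts in Ctrl and 354 and 392 in Gli1-PtgscKO crypts, with a log2 fold change of 0.64 (SE 0.34), and the mitochondrial sodium and calcium exchanger Slc8b1 had 66.5 and 65.7 and 131 and 95 (0.75, SE 0.46). At the lower end, the organic cation carrier Slc22a3 had 99.3 and 126 in Ctrl and 71.3 and 48.1 in Gli1-PtgscKO (-0.92, SE 0.49). These groups did not overlap, yet none of the 3 genes had an unadjusted p under 0.05. For Slc7a2, with 378 and 347 in Ctrl and 144 and 342 in Gli1-PtgscKO crypts, and for the proton-coupled amino acid carrier Slc36a1, with 1159 and 995 and 511 and 977, the difference lay almost wholly in Gli1-PtgscKO replicate 1. Slc46a3, a lysosomal carrier related to the folate carrier, had 145 and 251 and 89.2 and 144, and the urea carrier Slc14a1 had 550.1 and 769.7 and 442 and 445, the 2 Gli1-PtgscKO libraries being close together only for the latter.

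The absorptive carriers Slc5a1, Slc6a19 and Slc15a1 overlapped between the crypt groups. Slc5a1 had a log2 fold change of -0.19 (SE 0.33), Slc6a19 of -0.14 (SE 0.32) and Slc15a1 of -0.066 (SE 0.39). Fructose carrier Slc2a5 was slightly lower in both Gli1-PtgscKO libraries, with 993 and 1000.1 normalized counts in Ctrl and 924 and 833 in Gli1-PtgscKO (-0.18, SE 0.24), and the glucose carrier Slc2a1 slightly higher, with 306 and 343 and 396 and 399 (0.29, SE 0.28). By class, none of 7 nucleoside carriers separated the groups, 6 of 31 amino acid carriers were lower and 2 higher in both Gli1-PtgscKO libraries, and 1 of 25 metal carriers was lower and 3 were higher, among them the zinc importers Slc39a1 and Slc39a3, beside 11.3% lower and 9.73% higher of all genes, and nothing is read from counts this small. Without Gli1-PtgscKO replicate 2, which leaves the library that stood apart as the only one of its genotype, 20 members (10.3%) had a limma adjusted p under 0.05, where 17.2% of all genes did. In that fit the replicate spread came from the 2 Ctrl libraries, and the lone library was assumed to vary like them. The thiamine carrier Slc19a3 and the bile acid family member Slc10a5 were the members farthest below Ctrl in replicate 1, at -2.95 and -2.13 log2 units from the Ctrl mean, and they lay at 0.24 and 0.59 in replicate 2.

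**Figure D4:**
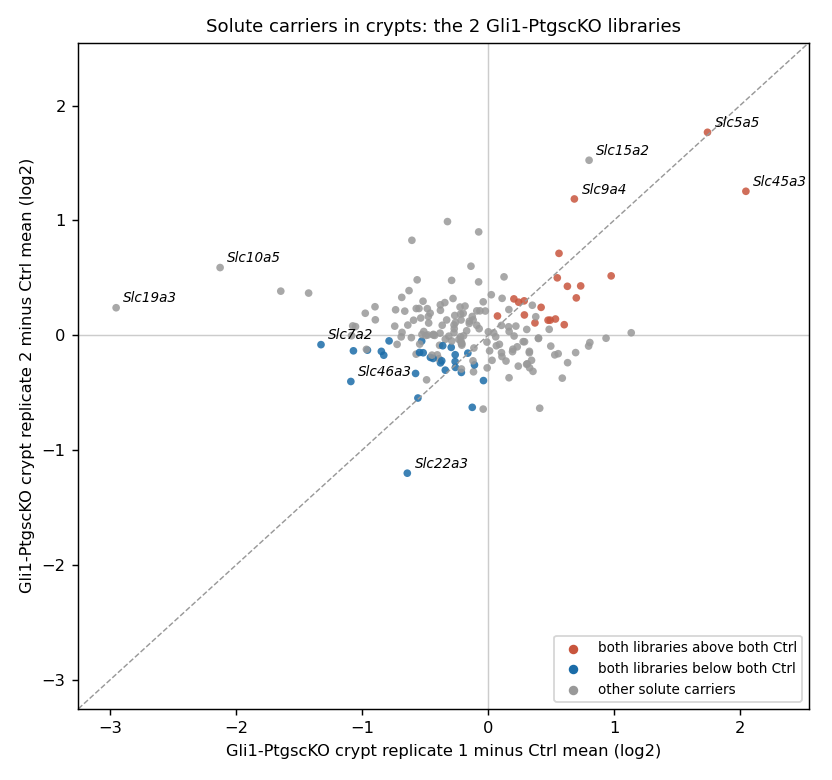
Log2 difference of each of 195 solute carriers from the Ctrl crypt mean in Gli1-PtgscKO crypt replicate 1 (horizontal) and replicate 2 (vertical), with genes above both Ctrl libraries in red and below both in blue. Slc5a5, Slc45a3 and Slc9a4 were high in both, and the cloud was wider in replicate 1, where Slc19a3 reached -2.95.

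In villi, the members farthest above Ctrl included Slc15a2 and Slc10a5, and those below included Slc11a1 and Slc15a3. Gli1-PtgscKO was set against a single Ctrl library, which has no replicate spread of its own, so the differences are described and no test was run. This comparison uses the same Ctrl villus library as the Ctrl axis. On deposited normalized counts + 1, both Gli1-PtgscKO libraries were more than 2-fold above Ctrl for 18 of 209 members (8.61%) and more than 2-fold below for 7 (3.35%), beside 10.6% and 6.4% of all 12701 genes. These counts depend on the scale, since CPM of listed reads placed both Gli1-PtgscKO libraries higher against Ctrl. Both Gli1-PtgscKO libraries differed from Ctrl with transcript length (Spearman 0.54 and 0.51 over all genes, 0.39 and 0.37 over the members). With and without a correction for length, 9 members were above and 3 below, where 5.45% and 1.75% of all genes were. The length of the longest transcript had a median of 3517 bases among members and 3277 among all listed genes.

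Slc15a2 stood farthest above Ctrl. It had 2.32 normalized counts (2 reads) in Ctrl villi and 56.6 and 65.7 in Gli1-PtgscKO villi, a ratio of 26.2 with an exact 95% interval from 7.11 to 218 for counting error only. In crypts it had 133 and 40.5 in Ctrl and 129 and 213 in Gli1-PtgscKO libraries, which overlap. Slc10a5, of the bile acid carrier family, had 55.6 in Ctrl villi and 350.2 and 334 in Gli1-PtgscKO villi, 2.60 log2 units higher. Slc6a7, a proline carrier best known from brain, had 12.7 and 77.2 and 66.6 (2.40), and Slc28a2 had 213 and 638 and 1011 (1.91). After length correction these differences were 2.45, 2.38 and 1.77, so they changed little. The anion exchanger Slc26a4 and the bicarbonate carrier Slc4a10 were also above Ctrl, from 4 and 2 reads in the Ctrl library, and for Slc4a10 the ratio was 6.82 with an exact 95% interval from 1.76 to 58.4, for counting error only. Slc5a12, a sodium-coupled lactate carrier, had 342 in Ctrl and 1151 and 806 in Gli1-PtgscKO villi (1.49, and 1.43 after length correction).

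Other members passed 2-fold in both libraries only before the length correction, among them 3 with transcripts of 5836 to 7814 bases. Slc30a10 had 235 normalized counts in Ctrl villi and 586 and 919 in Gli1-PtgscKO villi, 1.64 log2 units higher and 1.13 after correction. Slc38a2 had 272 and 689 and 585 (1.22, and 0.67 after correction). The sulfate carrier Slc26a2 behaved likewise, at 1.57 before and 0.80 after. In the deposited values both Gli1-PtgscKO libraries lay above Ctrl for each of these 3 genes, as the 2-fold rule that picked them requires.

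Among the 7 members below Ctrl, Slc11a1, the divalent metal carrier of phagosomes in macrophages, had 118 in Ctrl and 49.7 and 29.9 in Gli1-PtgscKO villi (-1.59). Slc15a3 had 76.5 and 19.9 and 30.9 (-1.59), and the glutamine carrier Slc38a3 had 19.7 and 5.35 and 6.76 (-1.56, from 17 reads in Ctrl). These 3 were not listed in crypts. Beside them, the immune markers (8 of 8 listed) summed to 1430 CPM in Ctrl villi and to 586 and 566 in Gli1-PtgscKO villi, and their part in the lower Slc11a1 and Slc15a3 levels was not tested. The heme carrier Slc48a1 had 205 and 98.6 and 85 (-1.15), and the scaffolds Slc9a3r2 and Slc9a3r1 lay at -1.25 and -1.04. None of these 3, nor the sulfate donor carrier Slc35b2, passed 2-fold after the length correction, and none of the 7 passed on CPM of listed reads.

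The abundant absorptive carriers differed by less than 2-fold between villus genotypes. Slc5a1 had 31043 normalized counts in Ctrl villi and 35809 and 23125 in Gli1-PtgscKO villi (-0.11). Slc6a19 had 7449.5 and 9330.0 and 5724 (-0.028), and Slc15a1 had 2698 and 4614 and 3420.1 (0.56). In each case replicate 1 held more than replicate 2, and for Slc5a1 and Slc6a19 the Ctrl level lay between them. Slc2a5 had 3499 and 2728 and 1597 (-0.75), Slc39a4 4169 and 2785 and 2091 (-0.79) and Slc46a1 3731 and 2544 and 2466 (-0.57), all with both Gli1-PtgscKO libraries below Ctrl on this scale.

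**Figure D5:**
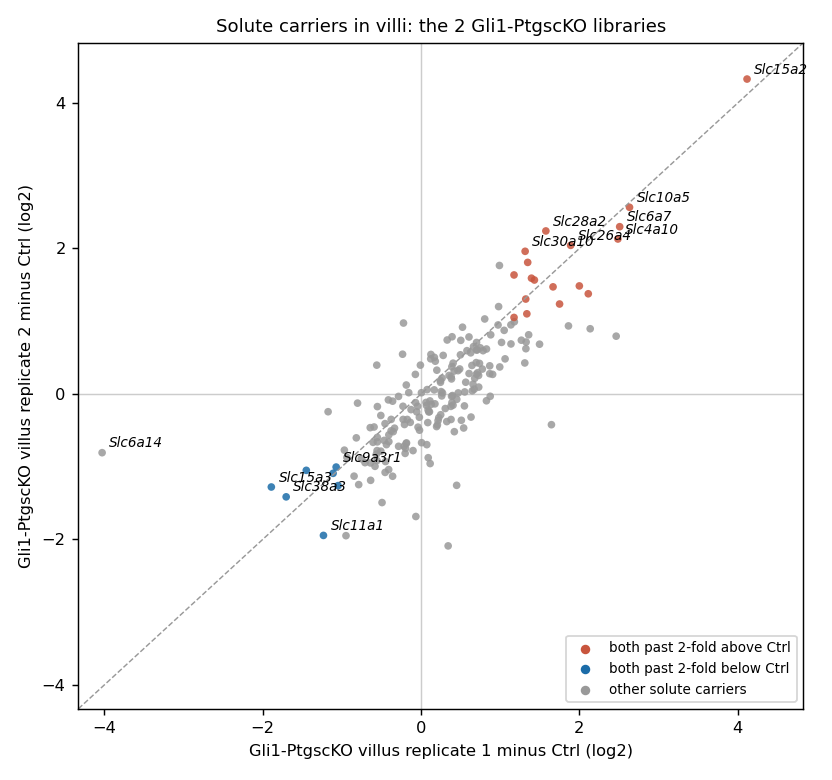
Log2 difference of each of 209 solute carriers from the Ctrl villus library in Gli1-PtgscKO villus replicate 1 (horizontal) and replicate 2 (vertical), on deposited normalized counts + 1. The 18 genes past 2-fold above Ctrl in both are red and the 7 below are blue; because both axes are taken from the same Ctrl library, points lie along the diagonal by construction, with Slc15a2 at the top.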

How the data were processed

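RNA-seq was made from small intestinal crypts and villi of Ctrl and Gli1-PtgscKO mice (8 samples). Per the labels, the authors aligned reads with STAR to mm10 and used DESeq2. The counter and strand setting are not given in the sources used here. The deposited values are a signal: gene counts divided by the authors' size factors. Whole reads were recovered from 100% of values (tolerance 0.01). The fold change and p-value columns of the authors' own comparisons were not used. The lowest listed mean was 48.4 in crypts and 8.73 in villi.

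Crypts were tested by limma-trend 3.58.1 (R 4.3.3) on log2(value + 1) with Benjamini-Hochberg adjustment over all genes, with edgeR 4.0.16 and DESeq2 1.42.0 on recovered reads as alternatives. edgeR was not the main test because the deposited unit is no raw count. The limma step was checked on simulated data. CPM and TMM were computed over the 11227 shared genes, and the length correction subtracted a lowess curve (span 0.3) of log2 values on the log of the longest transcript (GENCODE M21). Sequences are RefSeq's (GRCm38.p6).

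Members and lists were chosen with earlier results of these data known. Genes were named from a list of textbook intestinal transporters, plus the 5 with the largest difference in each direction per comparison among those past 2-fold, or, in crypts, with groups that did not overlap. Members named outside it (Slc5a3, Slc2a10, Slc7a6, Slc9a5, Slc13a2os, Slc26a2, Slc35b2, Slc35c2, Slc39a1, Slc39a3 and Slc39a10) were chosen after their values were seen. Some genes are not reported here. Alternatives covered scaling, pseudocount, filter, fold, length, pairing and leaving out each library.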

Additional observations from a re-analysis of the deposited data

Results flagged for a closer look

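On deposited normalized counts, the genotype difference ran in opposite directions in crypts and villi for 11 named members. For each, both Gli1-PtgscKO libraries lay on 1 side of Ctrl in each tissue. The difference between tissues was not tested. Of the 85 named members in both tables, 18 had crypt groups that did not overlap, 15 of these had both villus libraries on 1 side of Ctrl, and 4 of the 15 ran in the same direction. Of all 11227 genes in both tables, 1453 ran in opposite directions, which is 12.9%, and 11 of 85 named members is also 12.9%, so nothing is read from this count about the members. Among those with separate crypt groups and villi on 1 side, the shares were 73.3% of the 15 members and 70.4% of 2065 genes. Some members had been named for a large difference in 1 of these comparisons. Values are log2 Gli1-PtgscKO minus Ctrl. Of the 11, 8 were lower in crypts and higher in villi. Slc22a3, an organic cation carrier, lay at -0.92 in crypts and 1.63 in villi, where 3 reads in Ctrl gave a ratio of 4.67 with an exact 95% interval from 1.48 to 23.6, for counting error only. For Slc7a2 the values were -0.71 and 1.41, from 8 reads in Ctrl villi. The urea carrier Slc14a1 had -0.55 and 1.02. Phosphate carrier Slc20a1 had -0.32 and 1.00. Zinc carrier Slc30a7 lay at -0.35 and 0.66. Slc22a4, which carries ergothioneine, had -0.49 and 0.24. The lysosomal Slc36a1 and Slc46a3 had -0.60 and 0.35, and -0.75 and 0.20. The other 3 were higher in crypts and lower in villi: Slc2a1 at 0.29 and -0.094, Slc8b1 at 0.75 and -0.71, and the scaffold Slc9a3r2 at 0.53 and -1.25. On CPM, however, both Gli1-PtgscKO villus libraries lay above Ctrl for Slc2a1, so its villus direction depends on the scaling. Beside these values, over the members the difference from Ctrl ran with transcript length at a Spearman correlation of -0.47 in Gli1-PtgscKO crypt replicate 1 and 0.17 in replicate 2, and at 0.39 and 0.37 in the 2 Gli1-PtgscKO villus libraries. After length correction 9 of the 11 still had opposite signs. What part length plays in the 11 differences was not tested further.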

How the results depend on the processing

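In crypts, 0 members passed the study's threshold as higher, against 2 with the replicate block, 2 with DESeq2, 2 with length correction and the block together, and 0 to 2 leaving out 1 library at a time. Lower calls ran from 0 to 6, adjusted calls from 0 to 20 (1 with the block), and the median fold change from -0.20 to 0.040, the highest values of each count coming without Gli1-PtgscKO replicate 2. Same-numbered crypt samples deviated together with a correlation of 0.25 across genes, from only 2 pairs, so the numbers were not taken as pairing the samples. In the Ctrl axis, 18 members were higher and 77 lower on CPM alone, 49 and 38 with TMM and 5 and 33 at 4-fold, and leaving out 1 library gave 18 to 29 higher, the most without crypt replicate 2. In the Gli1-PtgscKO axis the counts were 27 and 32 on CPM, 17 and 69 on deposited values, 41 and 15 with TMM and 10 and 3 at 4-fold, and leaving out 1 library gave 37 to 51 lower, the most without crypt replicate 1. In villi 18 members were above and 7 below Ctrl, with 0 below on CPM of listed reads, 4 and 0 at 4-fold, 21 to 34 above and 9 to 18 below leaving out 1 library, the most above without Gli1-PtgscKO replicate 2 and the most below without replicate 1. CPM of listed reads placed both Gli1-PtgscKO villus libraries higher against Ctrl than the deposited values did. The count above Ctrl on that scale is not given here. In crypts, a library left alone in its group was assumed to vary like the other group. Chosen after seeing the data, leaving out 1 library from counts on both scalings gave 18 to 29 higher in Ctrl, 15 to 25 in both genotypes and 17 to 24 lower in Gli1-PtgscKO, and also requiring 2-fold after length correction gave 14 higher and 37 lower in Ctrl, 26 and 15 in Gli1-PtgscKO and 14 and 14 in both. The causes were not tested. Shares of all genes are not given beside these alternative counts, so nothing is read from them about the members. Of 3049 values of single genes under alternatives, 2603 kept their side of the threshold or moved less than the spread, 432 moved more and 14 newly passed a threshold. No called value changed sign, but 217 of the 3049 had the opposite sign to the value reported. The single Ctrl villus library limits both villus comparisons.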

Other observations

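Genes that work with the carriers were described from a list of 30 symbols (subunits, scaffolds, the sodium pump, brush border peptidases, fructose and purine enzymes and nutrient-response factors). Of these symbols, 25 were listed and 24 were in both tables. Pept1, which was not listed under that symbol, is another name of the member Slc15a1. In Ctrl villi 9 of the 24 were higher on both scalings and 1 lower, beside 7.66% and 23.8% of all genes, and in Gli1-PtgscKO villi 10 were higher and 0 lower, beside 4.14% and 8.15%. Ada, adenosine deaminase, had 15.7 and 17.5 CPM in Ctrl crypts, 17.9 and 32.2 in Gli1-PtgscKO crypts, 309 in Ctrl villi and 302 and 473 in Gli1-PtgscKO villi, so it was more than 2-fold higher in every villus library of its genotype than in any crypt. Pdzk1, a brush border scaffold, had 9.16 and 20.5 CPM in Ctrl crypts, 11.2 and 18.6 in Gli1-PtgscKO crypts, 161 in Ctrl villi and 137 and 183 in Gli1-PtgscKO villi. Khk, which phosphorylates the fructose that Slc2a5 brings in, had 122 and 118 CPM in Ctrl crypts, 248 and 117 in Gli1-PtgscKO crypts, 909 in Ctrl villi and 649.9 and 529 in Gli1-PtgscKO villi, and the fructose enzyme Tkfc was higher in villi of both genotypes as well. The 1 partner lower in Ctrl villi was hexokinase 2 (Hk2), at -2.90 on CPM. Basigin (Bsg), which escorts monocarboxylate carriers such as Slc16a1 and Slc16a3 to the membrane, differed by 1.19 in Ctrl and 0.047 in Gli1-PtgscKO.

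In crypts, 1 of 24 partners had an unadjusted p under 0.05 by limma, beside 0.632% of all genes. It was hexokinase 1 (Hk1), with 229.6 and 306 normalized counts in Ctrl and 439.6 and 467 in Gli1-PtgscKO (log2 fold change 0.77, SE 0.31), and it did not pass adjustment over all genes. In villi, 0 of 25 partners were more than 2-fold above Ctrl in both Gli1-PtgscKO libraries and 1, Bsg, was below, beside 10.6% and 6.4% of all genes, with 22175 normalized counts in Ctrl and 9559 and 8717 in Gli1-PtgscKO. On CPM, Bsg had 1317 in Ctrl villi and 797 and 672 in Gli1-PtgscKO villi and did not pass 2-fold.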
